A study of Mus musculus with 2 samples.

Results

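Tigit, Lag3, Havcr2 and 6 further genes of inhibitory receptors and their close partners were measured in inflammation-experienced regulatory T cells of the mouse. The 9 genes are Tigit, Cd96, Cd226, Lag3, Havcr2, Cd200, Vsir, Cd160 and Klrg1, found by gene name among 55536 annotated genes, of which 22028 are protein coding. All 9 were present once in the gene table of each library. The label inhibitory receptors covers most of them but not every one. Cd226 encodes an activating receptor, and Cd200 encodes the ligand of an inhibitory receptor. The cells were labelled as primary cells from an adult male of 6 months, of strain Foxp3CreERT2 x Rosa26YFP, with an origin from bone marrow hematopoietic cells. In this strain a tamoxifen-dependent Cre recombinase is driven by Foxp3, the defining factor of regulatory T cells, and YFP is the reporter at Rosa26. The labels give 1 biological replicate sequenced as 2 technical libraries of polyadenylated RNA. How the inflammation was raised, how the cells were sorted and whether animals were pooled is not stated in them. Every sample carries the same alleles and exposure, and no control cells were analysed here, so the values are levels and show no response to inflammation. Each ± is the SD over the 2 technical libraries, which measures library preparation and sequencing and not animals.

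These proteins sit on the surface of lymphocytes and tune the signal of the T cell receptor. TIGIT, CD96 and CD226 compete for the poliovirus receptor (Pvr) and for nectins on neighbouring cells, TIGIT as an inhibitor and CD226 as an activator. LAG-3 binds MHC class II as CD4 does, TIM-3 (Havcr2) binds galectin-9 among others, CD160 shares the ligand HVEM (Tnfrsf14) with BTLA, KLRG1 binds cadherins, and VISTA (Vsir) and CD200 are surface glycoproteins of the immunoglobulin superfamily. Regulatory T cells are known to carry TIGIT, and TIM-3, LAG-3 and KLRG1 are known from activated or effector subsets of them.

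The gene totals were 15386113 counts in technical replicate 1 and 13604480 in technical replicate 2, so that 3 counts, the limit that a count of 0 allows, correspond to 0.195 and 0.221 CPM (counts scaled to a common library total). The labelled cell type was checked against markers: 6 of 6 T cell genes and 6 of 6 regulatory T cell genes reached 1 TPM in both libraries, with Foxp3 at 22.05 and 17.9 TPM. Of markers of other cells, 0 of 8 myeloid, 0 of 5 dendritic, 0 of 4 B cell, 0 of 4 mast cell or basophil, 0 of 3 endothelial and 1 of 8 NK cell genes reached it. Both CD8 genes did (summed level 13.96 and 13.37 TPM), as did both gamma-delta T cell genes (26.68 and 20.26 TPM). The latter sum was mostly Tcrg-C1 (24.92 and 18.71 TPM, near the level of Foxp3), with Trdc at 1.76 and 1.55 TPM.

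Of the 9 genes, 8 were detected, which here means at least 1 TPM in both libraries, and Havcr2 was not. TPM is a relative transcript abundance that scales reads by transcript length, so that levels of different genes can be compared. By comparison, 10288 of the protein-coding genes (46.7%) were detected. The median of the 9 genes was 104.4 TPM, against 5.625 TPM over the 16288 protein-coding genes with a read, both summed over all transcripts. In these bulk samples fewer cells with a transcript and less transcript per cell cannot be told apart.

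**Figure D1:**
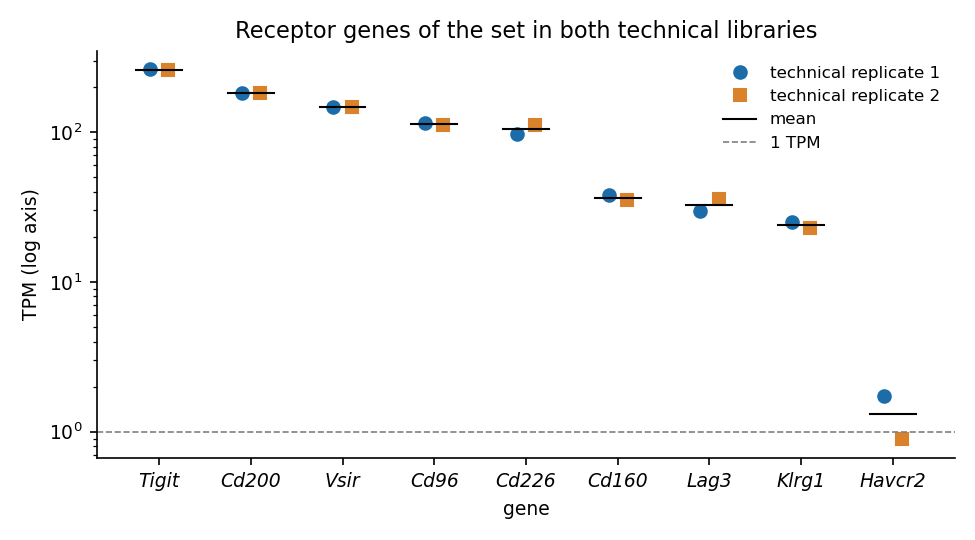
TPM (log axis) of each of the 9 genes in technical replicate 1 (circles) and technical replicate 2 (squares), with the mean as a bar and 1 TPM as a dashed line. Tigit is highest at 262.63 and 258.4 TPM, 8 genes lie above 20 TPM in both libraries, and Havcr2 lies on both sides of 1 TPM.

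Tigit was the highest of the set, at 262.63 TPM in the first and 258.4 TPM in the second technical library (260.5 ± 2.99 TPM, from 2839 and 2468 counts), above 97.4% of protein-coding genes with a read. Cd200 followed at 181.99 and 182.68 TPM and Vsir at 146.03 and 148.08 TPM. Cd96 stood at 115.65 and 111.4 TPM and Cd226 at 97.56 and 111.18 TPM. A lower tier held Cd160 (37.81 and 34.98 TPM), Lag3 (29.85 and 35.61 TPM) and Klrg1 (24.94 and 22.96 TPM), which lay above 73.1% to 80.1% of protein-coding genes with a read. Havcr2 was far below, at 1.72 and 0.89 TPM. In this order 7 of 8 neighbouring pairs did not overlap between libraries. The libraries of Cd160 and Lag3 overlapped, and Cd96 and Cd226 were nearly level in technical replicate 2 (111.4 and 111.18 TPM), so neither pair was separated beyond the spread.

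Sequence just upstream of the transcript start is given for 3 genes that the results turn on. These are the highest gene Tigit, the lowest gene Havcr2, and Cd160, whose reads were assigned to transcripts with distant annotated starts. The windows are the 250 bases before a RefSeq start on assembly GRCm38.p6, written 5′ to 3′ on the strand of the gene, for Tigit at chr16:43664185-43664434 (minus strand), for Havcr2 at chr11:46454681-46454930 (plus strand) and for the downstream start of Cd160 at chr3:96814522-96814771 (minus strand). Capitals mark letters of motifs searched on both strands.
Tigit: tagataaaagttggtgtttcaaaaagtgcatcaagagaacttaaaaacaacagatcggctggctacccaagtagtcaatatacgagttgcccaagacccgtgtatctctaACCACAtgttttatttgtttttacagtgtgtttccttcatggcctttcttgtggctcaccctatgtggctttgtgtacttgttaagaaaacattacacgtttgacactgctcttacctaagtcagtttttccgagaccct
Havcr2: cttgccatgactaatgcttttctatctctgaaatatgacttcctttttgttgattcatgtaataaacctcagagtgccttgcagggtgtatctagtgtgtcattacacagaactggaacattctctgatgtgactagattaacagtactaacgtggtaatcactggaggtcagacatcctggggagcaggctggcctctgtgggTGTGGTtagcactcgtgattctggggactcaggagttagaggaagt
Cd160: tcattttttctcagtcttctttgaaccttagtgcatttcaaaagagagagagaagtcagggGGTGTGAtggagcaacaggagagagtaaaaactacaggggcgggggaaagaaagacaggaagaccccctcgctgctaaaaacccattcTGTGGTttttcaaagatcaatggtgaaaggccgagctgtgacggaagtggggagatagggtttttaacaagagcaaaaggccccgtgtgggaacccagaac
RefSeq windows were at hand for 6 of the 9 genes (7 windows, as Cd160 has 1 for each of its starts). The letters TGTGGT, the core that Runx factors bind, were found in 5 of 7 windows and in 14.0% of all 32851 promoter windows of that length. In the windows printed here they begin at position -140 in Tigit, -46 in Havcr2 and -101 in Cd160, counted from the base before the start as -1. The Cd160 window also held TCACACC, letters of the T-box core, at -189, which 3.33% of all windows hold. The AP-1 letters TGACTCA and the forkhead letters TGTTTAC were in 0 of 7 windows, against 4.46% and 3.17% of all. The highest and the lowest gene both held the Runx letters. The letters were chosen with the windows in view, and a match describes sequence, not binding.

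The receptors that compete for Pvr were all well above their ligands. Tigit exceeded Cd96 by 2.27-fold and 2.32-fold and the activating gene Cd226 by 2.69-fold and 2.32-fold in the 2 libraries on the TPM scale. Cd96 exceeded Cd226 by 1.19-fold in technical replicate 1 and by 1.00-fold in technical replicate 2. Pvr itself stood at 14.62 and 12.87 TPM, 18.0 and 20.1 times below Tigit over all transcripts, and 33.9 and 41.8 times below it over the transcripts with an agreed complete reading frame. The nectin genes were not detected, with Nectin1 at 0.27 and 0.81 TPM, Nectin2 at 0 and 0.10 TPM, Nectin3 at 0.01 and 0.21 TPM and Nectin4 at 0.07 and 0.06 TPM. Pvrig, another receptor of the nectin system, was low but detected at 7.88 and 6.36 TPM.

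The CD4 relative Lag3 stood at 32.7 ± 4.07 TPM from 724 and 763 counts. Cd4 itself reached 237.69 and 247.1 TPM, which is 7.96 and 6.94 times the Lag3 level. Over the transcripts with an agreed complete reading frame it was 6.92 and 5.94 times that level. Cd4 lies beside Lag3 in the genome, 16140 bp away on the same strand of chromosome 6, while Ptms, 1976 bp from Lag3 on the same strand, stood at 8.98 and 9.63 TPM. The class II genes that encode the LAG-3 ligand were low, with H2-Eb1 at 11.21 and 6.99 TPM, H2-Aa at 6.96 and 3.55 TPM and H2-Ab1 at 3.19 and 2.11 TPM. Of its other known ligands, galectin-3 (Lgals3) stood at 9.23 and 9.88 TPM, Fgl1 was at 0.02 and 0.05 TPM, and Clec4g had no read. Adam10 and Adam17, the proteases that cleave LAG-3 from the surface, were named after their values were seen. They stood at 54.83 and 58.1 TPM and at 35.27 and 39.87 TPM.

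Havcr2 was the only gene of the 9 that did not reach 1 TPM in both libraries. It held 57 counts in technical replicate 1 (3.70 CPM, 95% exact binomial interval 2.81 to 4.80) and 26 in technical replicate 2 (1.91 CPM, 1.25 to 2.80), above the limit of 3 counts in both. Intervals given here cover counting error only, because reads that carry no molecular identifier can be copies of 1 molecule. Its galectin and alarmin ligands were high in the same RNA, with Lgals9 at 192.67 and 185.75 TPM and Hmgb1 at 267.25 and 269.98 TPM, whereas Ceacam1 was at 0.06 and 0 TPM. Related TIM genes were also low, with Havcr1 without a read, Timd2 at 0.26 and 0.39 TPM and Timd4 at 0.23 and 0 TPM. TIM-3 is also known from myeloid and dendritic cells and NK cells. Their marker lists summed to 3.17 and 2.06, 0.75 and 0.82, and 6.63 and 8.48 TPM. The genes of these lists without a read in either library were Adgre1, Itgax, Ncr1 and Klre1. Others held reads, among them Lyz2 (12 and 9 counts), Xcr1 (27 and 21 counts) and Prf1 (127 and 144 counts). Of these sums only the myeloid was lower in technical replicate 2, and its largest fall was in C1qb (1.32 and 0 TPM). Lyz2, Csf1r and Fcer1g were lower there too, whereas Tyrobp (0.59 and 1.06 TPM), Itgam (0.07 and 0.14 TPM) and C1qa (0.08 and 0.18 TPM) were higher. The B cell list also summed lower in technical replicate 2 (3.24 and 2.5 TPM). The part of any of these cells in the Havcr2 level was not tested.

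The ligand gene Cd200 and its receptor were both present. Cd200 exceeded Cd200r1, the inhibitory receptor (36.34 and 35.42 TPM), by 5.01-fold and 5.16-fold over all transcripts. Over transcripts of the consensus coding set (CCDS), which have an agreed complete reading frame, it did so by 2.58-fold and 2.79-fold. Cd200r4 stood at 4.48 and 4.26 TPM and Cd200r3 at 1.38 and 0.76 TPM. For Vsir, the binding partner PSGL-1 (Selplg) reached 349.1 and 381.68 TPM, and Igsf11 had no read. Tnfrsf14, which encodes the HVEM ligand of Cd160, stood at 117.2 and 105.23 TPM, 3.10 and 3.01 times the Cd160 level, but 1.29 and 1.09 times with CCDS transcripts alone. The receptor gene Btla, which shares this ligand, stood at 47.06 and 40.61 TPM. Klrg1 was at 23.95 ± 1.40 TPM from 423 and 344 counts. Of its cadherin ligands, Cdh1 stood at 1.82 and 1.83 TPM, Cdh2 at 0 and 0.02 TPM and Cdh4 at 0.01 and 0.04 TPM. NK cells also carry CD96, CD160 and KLRG1, and of the 8 NK cell markers only the pore-forming gene Prf1 was detected (4.46 and 5.78 TPM).

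**Figure D2:**
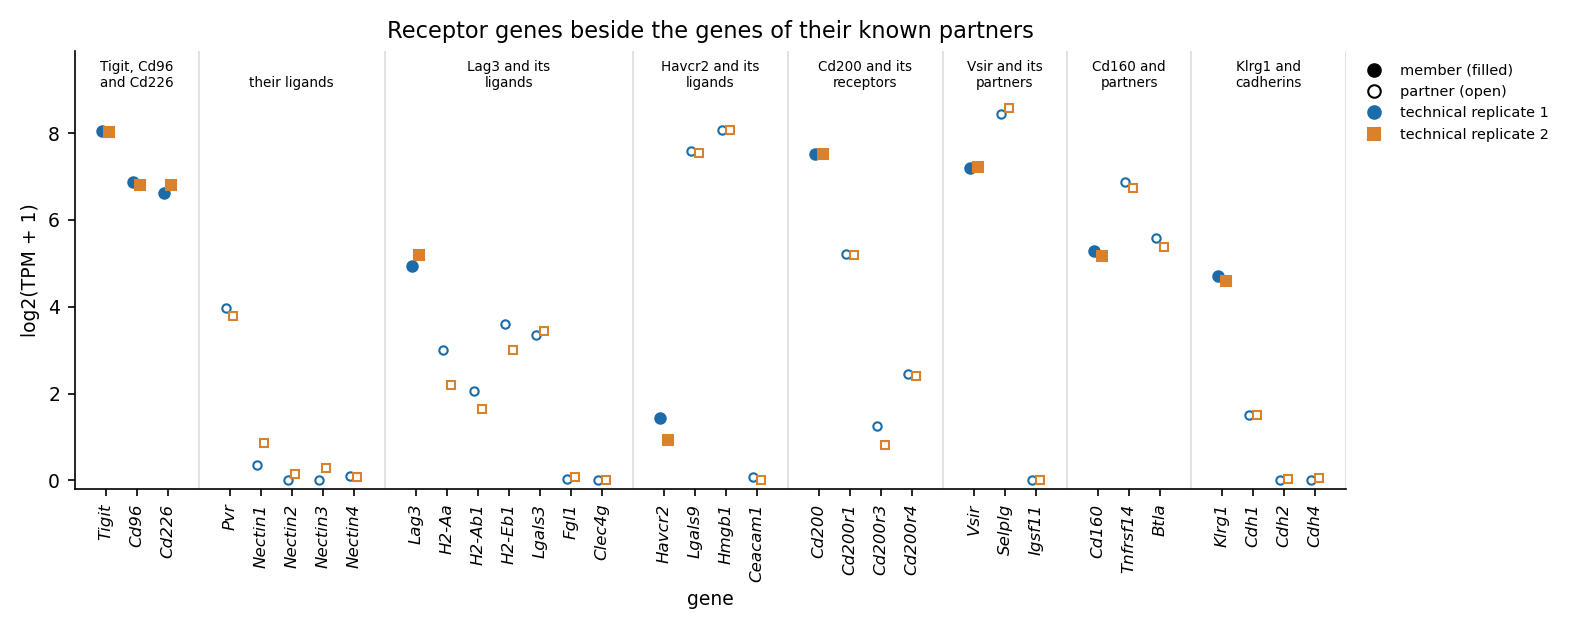
log2(TPM + 1) of the 9 genes (filled) beside the genes of known ligands, receptors and ligand-sharing receptors (open) in technical replicate 1 (circles) and technical replicate 2 (squares). Tigit, Cd96 and Cd226 lie above Pvr and the nectins, whereas Havcr2 lies below Lgals9 and Hmgb1.

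The pathway around these receptors was examined through 61 genes on 4 lists. Of 23 ligand and counter-receptor genes 12 were detected, with a median of 1.825 TPM, below the 5.625 TPM of protein-coding genes with a read and above the 0.995 TPM of all 29305 genes with a read. Selplg, Hmgb1, Lgals9, Tnfrsf14, Cd200r1 and Pvr were its highest members. Of 8 relatives 5 were detected, of which Cd4 was the highest. The inhibitory receptor genes Pdcd1 (196.78 and 190.51 TPM) and Ctla4 (181.05 and 161.21 TPM) stood near the levels of Cd200 and Vsir. All 17 signalling genes were detected, with a median of 95.97 TPM. The kinase gene Lck (1287 and 1169 TPM), the integrin chain genes Itgb2 (367.17 and 341.89 TPM) and Itgal (149.89 and 152.3 TPM), which form the LFA-1 partner of CD226, and the adaptor gene Dok2 of the CD200 receptor pathway (155.58 and 140.3 TPM) led them. The phosphatase genes Ptpn6 (142.32 and 140.88 TPM) and Inpp5d (117.78 and 109.94 TPM), which inhibitory tails recruit, came next. Of 13 regulators known to act on such receptor genes 12 were detected, and their median was 32.455 TPM. The highest were the interleukin-27 receptor gene Il27ra (202.42 and 198.23 TPM) and the factor genes Tox (137.54 and 151.56 TPM), Batf (127.76 and 119.72 TPM), Maf (95.76 and 96.06 TPM), Stat3 (73.93 and 72.49 TPM) and Nfatc1 (72.79 and 65.06 TPM). Eomes did not reach the threshold, at 0.46 and 0.70 TPM.

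How much of each level came from full-length coding transcripts differed within the set. The transcript table assigns the reads of a gene to its annotated transcripts by estimation, and the CCDS transcripts were summed apart. For 6 genes over 99% of the TPM lay on CCDS transcripts, and for 3 genes a far smaller share did, namely Cd200 (46.1%), Cd226 (23.9%) and Vsir (20.3%). Tigit, Cd96 and Klrg1 have 1 annotated transcript each, so no such assignment enters their levels. With CCDS transcripts alone, a choice made after seeing the data, the order became Tigit, Cd96, Cd200, Cd160, Lag3, Vsir, Cd226, Klrg1 and Havcr2. The middle gene was then Lag3 at 32.7 TPM, whereas over all transcripts it was Cd226 at 104.4 TPM. The median of all protein-coding genes was not recomputed with CCDS transcripts. Cd200 stood at 82.81 and 85.31 TPM on this scale, Vsir at 30.57 and 29.16 TPM and Cd226 at 23.51 and 26.42 TPM. Tigit exceeded Cd226 by 11.2-fold and 9.78-fold on that scale, and Cd96 exceeded it by 4.92-fold and 4.22-fold. Only 5 of 8 neighbouring pairs were then separate. The places of Tigit at the top and Havcr2 at the bottom were the same on both scales.

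**Figure D3:**
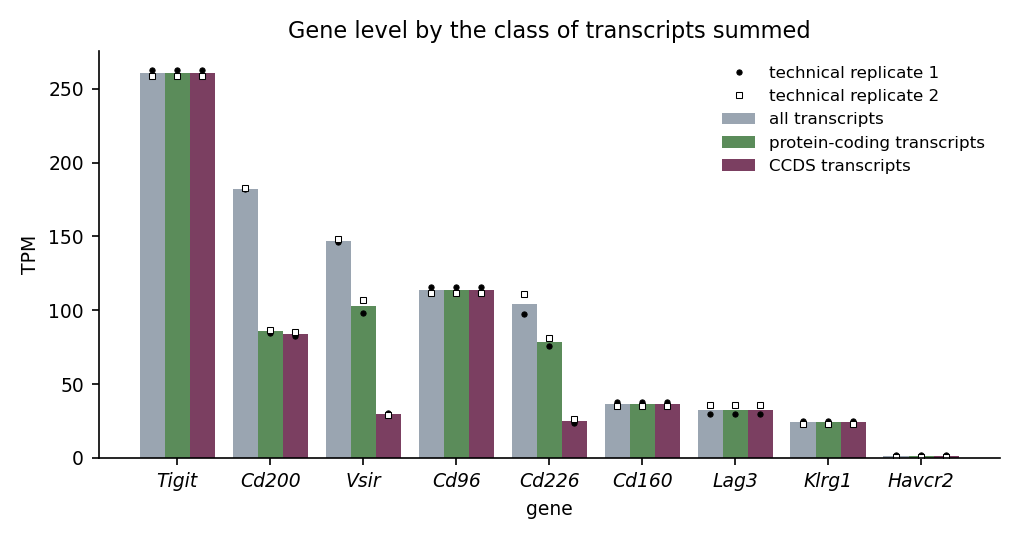
Mean TPM of each gene (bars, from 0) summed over all its transcripts, over protein-coding transcripts and over CCDS transcripts, with technical replicates 1 (dots) and 2 (open squares). Cd200, Vsir and Cd226 drop to 84.06, 29.9 and 24.97 TPM with CCDS transcripts, and the bars of Tigit, Cd96, Cd160, Lag3 and Klrg1 keep their height.

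Because TPM is scaled by length, shares of TPM and of reads parted in the genes with short annotated transcripts. The full-length Cd200-202 (2347 nt) held 84.6% and 85.6% of the gene's estimated counts but 45.5% and 46.7% of its TPM. A processed transcript of 281 nt, Cd200-210, held 40.1% and 39.5% of the TPM from 7.53% and 7.30% of the counts. For Vsir, the CCDS transcript Vsir-201 (4846 nt) held 59.9% and 58.9% of the counts but 20.9% and 19.7% of the TPM. Vsir-202 (1290 nt), with a coding sequence of 681 nt against 927 nt, led by TPM (40.6% and 39.4%). Cd226-207 (4494 nt) held 59.6% and 59.3% of the counts and 22.1% and 22.6% of the TPM. Transcripts of Cd226 annotated as subject to nonsense-mediated decay took 19.2% and 22.5% of its counts. The longest coding transcript thus held most reads in each of these 3 genes, and shorter annotated transcripts held most of their TPM.

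Reads of Cd160, Vsir and Cd226 were assigned to more than 1 annotated start, and those of the other genes fell almost wholly on transcripts of 1 start group (each start within 250 nt of the next). For Cd160, the transcripts from the first start took 15.4% of the counts (12.5 to 18.7, 95% Clopper-Pearson) in the first library and 19.4% (15.9 to 23.3) in the other. The start 14830 nt downstream, whose promoter window is printed above, took 84.6% (81.3 to 87.5) and 80.6% (76.7 to 84.1). Within the first group the estimation gave all reads to the transcript with 423 nt of coding sequence in the first library (85.35 and 0 counts) and to the transcript with 555 nt in the other (0 and 90.45 counts), so these 2 were not resolved. For Vsir, 30.1% (28.4 to 31.7) and 30.5% (28.8 to 32.3) of the counts belonged to the start 2472 nt downstream. For Cd226, 74.7% and 74.5% belonged to the first start group, 21.8% and 23.0% to the group 20363 nt downstream, and 3.55% and 2.47% to the start 29134 nt downstream. The intervals of the libraries overlapped for each start group of these genes. The shares rest on the annotation and on estimation, and no start was measured directly.

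**Figure D4:**
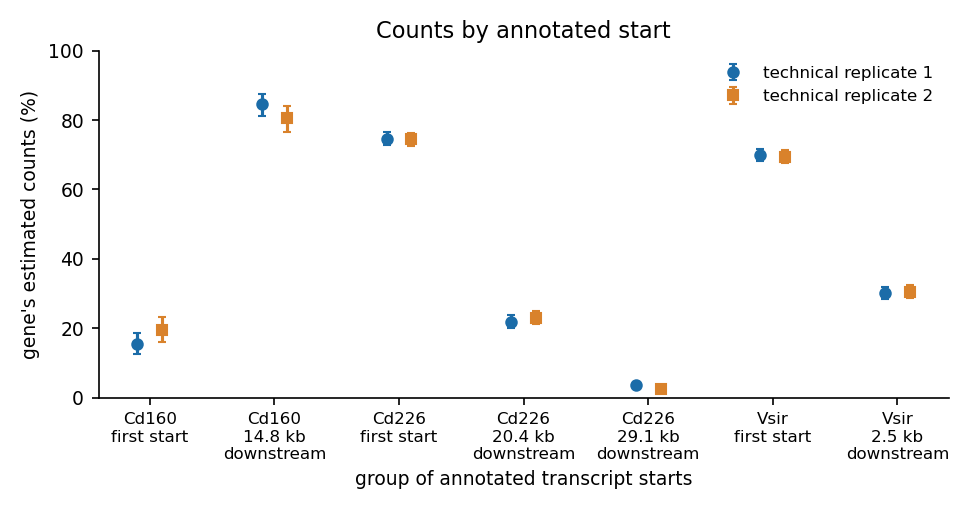
Percent of a gene's estimated counts assigned to each group of annotated transcript starts of Cd160, Cd226 and Vsir, with 95% Clopper-Pearson intervals (bars, counting error only), for technical replicates 1 (circles) and 2 (squares). The downstream start of Cd160 takes over 80% in both libraries, and the first start takes over 69% for Vsir and over 74% for Cd226.

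The libraries were compared gene by gene to measure the technical error of the set. An exact binomial test, two-sided and adjusted by Benjamini-Hochberg over 17334 genes, compares these 2 libraries and no conditions. It treats each read as an independent molecule, so its p-values cover counting error only and are too small where reads are copies. It called 3 of the 9 genes at an adjusted p under 0.05, against 19.1% of all genes tested (9.45% higher and 9.63% lower in technical replicate 2). Cd226 (2000 and 2062 counts) was higher in technical replicate 2 by 0.22 on the log2 scale after adjustment for library size (adjusted p = 4.07e-05, exact binomial). Lag3 (724 and 763 counts) was higher by 0.25 (adjusted p = 0.00728, exact binomial). Havcr2 (57 and 26 counts) was lower, with a log2 ratio of -0.95 (adjusted p = 0.0276, exact binomial). The other 6 genes had log2 ratios from -0.12 (Klrg1) to 0.03 (Cd200) and did not pass. The median size of the log2 ratio was 0.0702 for the 9 genes and 0.203 for all genes tested, which hold many genes of lower count.

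In the smaller gene table, counted from genome alignments, 1 of the 9 genes was called, against 6.58% of 11051 genes. This was Havcr2 at 24 and 6 counts (log2 ratio -1.87, adjusted p = 0.0456, exact binomial). Lag3 (547 and 577 counts, log2 ratio 0.21, adjusted p = 0.131, exact binomial) and Cd226 (594 and 573 counts, 0.08, adjusted p = 0.673) did not pass there. With a common dispersion fitted by edgeR to the same libraries (coefficient of variation 0.105), 0 of 9 genes were called, against 1.80% of all. Havcr2 had an unadjusted p of 0.0209 in that edgeR exact test and an adjusted p of 0.332. For Cd226 and Lag3 the unadjusted p was 0.315 and 0.273 in the edgeR exact test. In the exact binomial test on the larger table, 19.1% of all genes tested were called, 9.63% as lower in technical replicate 2. Of 3 class II genes 2 were called lower, H2-Aa (95 and 42 counts, adjusted p = 0.0022, exact binomial) and H2-Eb1 (134 and 64 counts, adjusted p = 0.000693, exact binomial). H2-Ab1 (43 and 27 counts, adjusted p = 0.395, exact binomial) did not pass. Of 4 myeloid genes tested 1 was called, C1qb (17 and 0 counts), against the same 19.1% of all genes. Itgam (3 and 7 counts), Tyrobp (4 and 6 counts) and Lyz2 (12 and 9 counts) did not pass. The part of these genes in the Havcr2 difference was not tested.

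**Figure D5:**
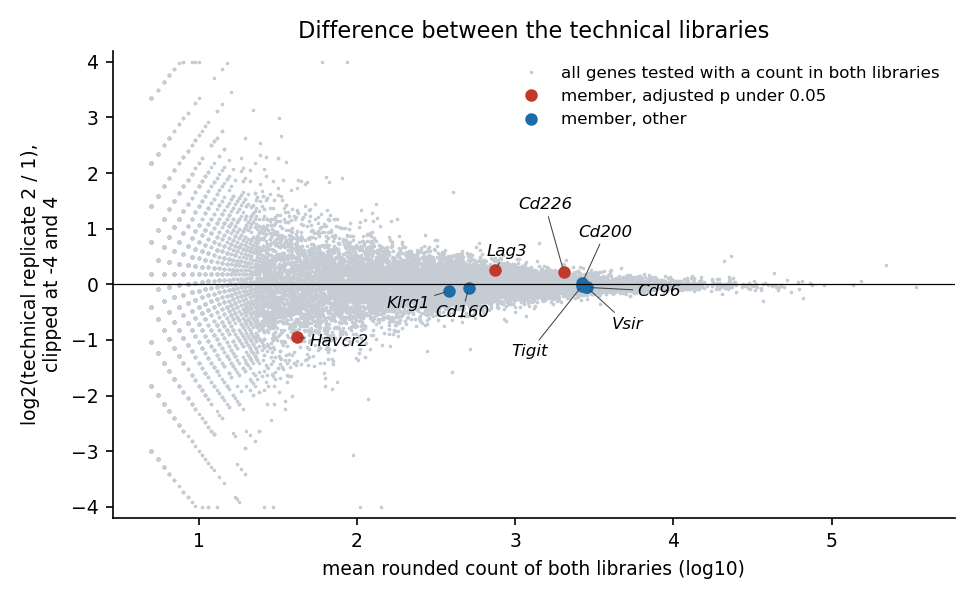
log2 ratio of technical replicate 2 to technical replicate 1 after adjustment for library size (vertical, clipped at the ends of the axis) against the mean rounded count (horizontal, log10) for the genes tested that have a count in both libraries (grey). Red points are the 3 genes called (Cd226 and Lag3 above 0, Havcr2 at -0.95) and blue points the other 6, which lie close to 0.

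Partner genes were compared in the same way. Of the ligands, 14 had enough counts to be tested, and Selplg was higher and Tnfrsf14, H2-Aa and H2-Eb1 were lower in technical replicate 2. Of 6 relatives tested, Ctla4 and Btla were lower (log2 ratios -0.17 and -0.22). Of 17 signalling genes 3 were higher and 4 lower, and of 13 regulators 2 were higher and 0 lower, Tox being 1 of them (0.13). The share of all genes called was 19.1%.

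The genes lie on 6 chromosomes of mm10. Tigit (ENSMUSG00000071552.5, chromosome 16, 43648867 to 43664146), Cd200 (ENSMUSG00000022661.14, 45382135 to 45409053) and Cd96 (ENSMUSG00000022657.9, 46035657 to 46120251) share the minus strand of chromosome 16, with 1717989 bp between Tigit and Cd200 and 626604 bp between Cd200 and Cd96. Klrg1 (ENSMUSG00000030114.8, chromosome 6, 122270596 to 122282882) and Lag3 (ENSMUSG00000030124.2, 124904361 to 124911705) share the minus strand of chromosome 6 at a distance of 2621479 bp. Cd160 (ENSMUSG00000038304.14) lies on the minus strand of chromosome 3 from 96798763 to 96829351. Vsir (ENSMUSG00000020101.14) lies on the plus strand of chromosome 10 from 60346851 to 60372684, Havcr2 (ENSMUSG00000020399.14) on that of chromosome 11 from 46454935 to 46481255, and Cd226 (ENSMUSG00000034028.16) on that of chromosome 18 from 89176967 to 89272229. Vsir overlaps Cdh23 (5.26 and 5.66 TPM) and Cd160 overlaps Pdzk1 (0.18 and 0.06 TPM), each on the opposite strand. The strand setting of the counting is not given in the sources used here, so reads in these overlaps cannot be assigned with certainty. All 9 estimated gene counts were whole numbers (tolerance 0.005), so the counts show no division of reads with another gene.

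The tables weighted the genes differently. In CPM, Lag3 was 3.25 and 3.15 times and Cd96 2.64 and 2.71 times as high in the smaller as in the larger table. Vsir (1.11 and 1.16 times) and Cd200 (1.13 and 1.09 times) were nearly equal. The median over 8664 genes was 1.69 and 1.67, with quartiles of 0.955 to 2.41 and of 0.961 to 2.37, so Lag3 and Cd96 lay above the upper quartile. The smaller table thus gave Lag3 a larger share of reads than the larger one, relative to the other 8 genes.

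The protein-coding genes closest in level to Tigit over the 2 libraries were Txnip (263.48 and 256.68 TPM), Cox7b (257.02 and 261.62 TPM) and Atp5g3 (263.0 and 251.14 TPM). Those closest to Lag3 were Mfap3 (29.98 and 35.98 TPM), Alkbh3 (30.22 and 35.79 TPM) and Cnot9 (29.38 and 35.3 TPM). Closeness was measured as Euclidean distance in log2(TPM + 1) and ran from 0.0107 to 0.0410. Over 2 technical libraries it is a likeness of level only.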

How the data were processed

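PolyA RNA of 1 biological replicate was measured in 2 technical libraries. For each library the authors deposited a larger gene table and a transcript table (GENCODE M21, mm10), whose estimated counts (expected counts) and TPM were made from transcriptome alignments, per the text deposited with each library. The transcript table also gives the percent of a gene's TPM on each transcript, per the file headers. A smaller table of whole-number gene counts (GENCODE M4) was made from genome alignments, per the text the authors deposited. Aligner, quantifier, versions and strand setting are not given in the sources used here. Entries without a gene name (0.174% and 0.158% of counts) were left out. Estimated counts were rounded for the binomial test, which used genes with at least 10 counts summed, TMM library sizes (edgeR 4.0.16) and a threshold of 0.05. DESeq2 1.42.0 size factors, total counts, posterior mean counts, no filter, the smaller table and an edgeR common dispersion were alternatives. With 1 library against 1 there is no replicate check. The test was tested on simulated Poisson counts, in which reads are independent. That simulation cannot show how the test behaves where reads are copies. The genes and all lists were chosen with earlier results of these data known. The text names all 9 genes, and the 3 protein-coding genes nearest to Tigit and Lag3. Of each partner list it names the 6 highest, those under 1 TPM and known ligands or ligand-sharing receptors. Adam10 and Adam17 were named outside this rule, after their values were seen. Sequences are from RefSeq. Python 3.11.15, scipy 1.17.1 and R 4.3.3 were used.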

Additional observations from a re-analysis of the deposited data

How the results depend on the processing

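The count of genes of the set detected was 8 or 9 under every alternative run, and the count of partner genes 46, against 40 at 5 TPM and 49 at 10 counts. The number of genes called between the libraries was 3307, against 727 with the smaller table, which holds fewer reads and tests fewer genes, and 312 with the edgeR dispersion, which counts the difference of the libraries as noise by construction. Under other size factors, no filter or posterior mean counts Cd226, Lag3 and Havcr2 were called too. Log2 ratios near 0 changed sign for Tigit (0.0539), Cd200 (-0.0265), Vsir (0.0167) and Cd160 (0.0532) in the smaller table, and for Vsir in TPM with a pseudocount of 1 or 0.1 (0.0200 and 0.0201). The cause was not tested. Of the recomputed levels, 14 moved by more than the SD of the libraries and 40 did not. Of those that moved, 7 did so under posterior mean TPM (Tigit 230.2, Cd200 165.3, Vsir 130.7, Cd96 100.3, Cd226 93.12, Cd160 32.3 and Klrg1 21.2 TPM). Of the 40, 9 left out technical replicate 1 and 9 left out technical replicate 2. With 2 libraries, leaving 1 out shifts the mean by no more than the SD, so these could not move. Of the shares of leading transcripts, 8 moved and 28 did not. The 28 include the shares with a library left out, which could not move either. The share of Havcr2 on Havcr2-201 was 75.02% by posterior means, against 99.1%. No paired analysis was possible because there is 1 group only, and leaving out a library leaves no comparison of the libraries. The depth limits Havcr2 most, at 57 and 26 counts.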
